A study of Homo sapiens with 11 samples.

Results

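Messenger RNA of 10 genes of the Hippo pathway was followed in human cancer cells that had been transfected with the microRNA miR-365a-3p or with a control miRNA. The 10 genes are YAP1 and WWTR1, which encode the co-activators YAP and TAZ, the DNA-binding partners TEAD1 and TEAD4, the kinase LATS2, the target genes CTGF, CYR61 and ANKRD1, and the angiomotins AMOTL1 and AMOTL2. They were chosen by name, as effectors and targets of the pathway that respond to tension in the actin cytoskeleton. Earlier results of these data were known when they were chosen. Each had a row of its own among the 31325 genes of the deposited table, so that 10 of 31325 genes are described, and all of them were tested.

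The cells were MDA-MB-231, a basal-like breast cancer line (the breast line), and SKOV3, an ovarian cancer line (the ovarian line) that the methods of the study name as its derivative SKOV3.ip1. Total RNA was hybridised to 11 Illumina BeadChips, with 3 arrays of MDA-MB-231 cells given control miRNA, 3 of MDA-MB-231 cells given miR-365a-3p, 2 of SKOV3 cells given control miRNA and 3 of SKOV3 cells given miR-365a-3p. All cells had been transfected with a small RNA, the controls included, and untransfected cells were not analysed here. The sample labels place every group at 48 h of treatment, whereas the design text of the series gives 24 h. The labels number the replicates but do not say whether they came from separate cultures, so p-values measure the spread between these arrays, which may be technical.

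YAP and TAZ are transcriptional co-activators that bind no DNA themselves and reach their target genes through the TEAD factors. The Hippo kinases, with LATS1 and LATS2 as the last of the chain, phosphorylate YAP and TAZ and keep them in the cytoplasm, and angiomotins bind YAP and hold it at junctions and on actin. Stretched cells with contractile actin fibres hold more YAP and TAZ in the nucleus, where CTGF (connective tissue growth factor, CCN2) and CYR61 (CCN1), which are both secreted matrix proteins, and ANKRD1, an ankyrin repeat protein known from stressed heart muscle, are among their best known targets. Several genes of the pathway, LATS2 and AMOTL2 among them, are themselves switched on by YAP and act back on it. Transcript levels do not report where YAP and TAZ proteins are or whether they are phosphorylated.

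The transfected microRNA is shown with its seed, the bases that pair with target messages, in capitals (bases 2 to 8 of 22). RefSeq places the mature sequence at chr16:14309340-14309361 on the plus strand of GRCh38.p14.
hsa-miR-365a-3p: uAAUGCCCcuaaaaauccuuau

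Promoter sequences were read because 3 of the 10 genes are standard TEAD targets. The 250 bases before the RefSeq start are shown for CTGF and ANKRD1, which moved in opposite directions in MDA-MB-231 cells, with each TEAD motif (CATTCC or its reverse complement GGAATG) in capitals. The CTGF bases lie at chr6:131951373-131951622 and the ANKRD1 bases at chr10:90921088-90921337, both on the minus strand of GRCh38.p14 and written 5′ to 3′.
CTGF: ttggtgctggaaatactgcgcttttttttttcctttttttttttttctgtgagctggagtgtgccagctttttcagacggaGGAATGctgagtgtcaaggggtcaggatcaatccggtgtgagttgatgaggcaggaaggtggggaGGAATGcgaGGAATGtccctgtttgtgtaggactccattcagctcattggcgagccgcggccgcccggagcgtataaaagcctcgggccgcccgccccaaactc
ANKRD1: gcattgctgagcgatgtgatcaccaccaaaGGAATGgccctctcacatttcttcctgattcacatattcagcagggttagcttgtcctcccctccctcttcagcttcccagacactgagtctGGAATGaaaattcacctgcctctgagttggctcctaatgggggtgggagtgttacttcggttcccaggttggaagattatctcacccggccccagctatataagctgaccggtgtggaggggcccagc

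The CTGF promoter held the TEAD motif 3 times, beginning 169, 104 and 95 bases before the start. The ANKRD1 promoter held it 2 times, 220 and 128 bases before the start, with an AP-1 motif (TGANTCA, the same on both strands) 195 bases before it. Of all 35116 RefSeq windows of this length (250 bases before to 50 after a start), 14.03% held a TEAD motif at least once, 1.373% at least 2 times and 0.1281% at least 3 times, and 7.709% held an AP-1 motif. A match of letters describes the window and is not a measured binding site.

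The remaining matches are shown with 10 bases on each side. They belong to genes that are parts of the pathway, of which LATS2 and AMOTL2 are also reported targets. The AMOTL2 stretch shown lies at chr3:134374501-134374526 on the minus strand, and its motif begins 69 bases before 1 of the 2 starts of the gene. The LATS2 stretch lies at chr13:21061562-21061587 on the minus strand, and its motif begins at base 10 of the transcript. The YAP1 stretch lies at chr11:102110275-102110300 on the plus strand, and its motif begins 162 bases before the start.
AMOTL2: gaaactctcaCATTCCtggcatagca
LATS2: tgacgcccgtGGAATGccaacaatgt
YAP1: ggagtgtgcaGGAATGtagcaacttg

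Windows were read for 7 of the 10 genes, and 5 of these 7 held a TEAD motif. By window this was 5 of 9, beside 14.03% of all windows. In the lists read below, the motif was held by 3 of 15 upstream regulators and 1 of 6 further TEAD and VGLL genes. It was also held by 5 of 12 other YAP/TAZ targets and 5 of 11 SRF and MRTF genes. Many of these genes have several windows, so that the share of all windows compares with counts of windows. Those were 3 of 22 for upstream regulators and 1 of 11 for TEAD and VGLL genes. They were 5 of 13 for other targets and 6 of 24 for SRF and MRTF genes. The letters were not found in the windows of WWTR1 and AMOTL1. TEAD1, TEAD4 and CYR61 are the other members. The TEAD motif was present both in CTGF, which fell in MDA-MB-231 cells, and in ANKRD1, which rose.

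**Figure D1:**
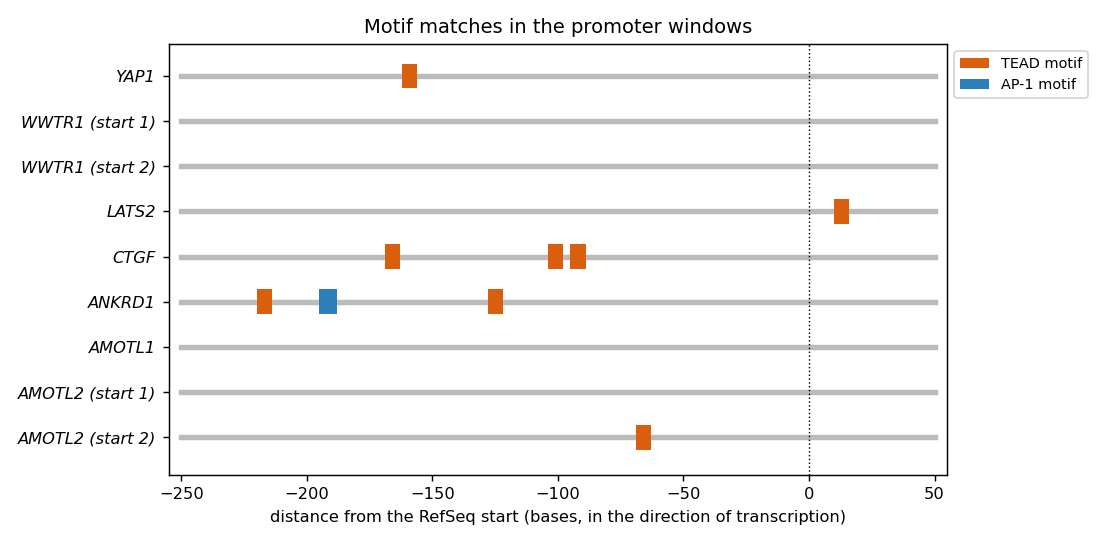
Positions of TEAD motifs (orange) and AP-1 motifs (blue) in the RefSeq promoter windows of 7 genes, drawn to scale along the distance from the start in bases (x axis), with 1 row per start. CTGF carries 3 TEAD motifs, ANKRD1 carries 2 with an AP-1 motif between them, and the rows of WWTR1 and AMOTL1 are empty.

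Expression values are on the log2 scale after quantile normalization of the 11 arrays, and a gene was called where the adjusted p from limma was under 0.05. The array median was 7.38, and most genes lie close to it, so that it is called the floor of these arrays here. The treated arrays differed from the controls as a whole in both lines: the 75th percentile of the deposited values ranged from 7.56 to 7.80 on the 6 treated arrays and from 7.86 to 8.04 on the 5 control arrays (mean difference -0.278, p = 0.005 by an exact permutation test within cell lines, two-sided, the smallest p that 200 arrangements allow). The median of 80 ribosomal protein genes minus that of 11 genes of very large proteins was higher by 1.86 after miR-365a-3p, averaged over both lines (exact permutation p = 0.005, the smallest possible). Its means were 2.76 in control and 5.07 in treated MDA-MB-231 cells, and 2.96 and 4.37 in SKOV3 cells. The part of this shift in the changes given here was not tested. The SKOV3 control arrays had the ovarian line's markers, with ERBB2 between 10.8 and 10.9 against 7.53 to 7.67 in the MDA-MB-231 controls and PAX8 at 8.18 against 7.39 to 7.42, while of the genes taken as MDA-MB-231 markers VIM was at 13.7 to 13.9 in both controls and MSN was lower in the MDA-MB-231 controls (9.87 to 10.21) than in the SKOV3 controls (10.58 to 10.62), against its label. The leukocyte and endothelial markers PTPRC, CD3E, PECAM1 and CDH5 lay between 7.22 and 7.49 on all arrays, at the floor.

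In MDA-MB-231 cells the secreted targets CTGF and CYR61 fell after miR-365a-3p, CTGF by 9.28-fold and CYR61 by 2.66-fold, whereas ANKRD1 rose by 1.60-fold. WWTR1 and LATS2 fell by small steps that took them to the floor of the arrays. YAP1 was lower on all 3 treated arrays than on any control array but missed the threshold. TEAD1, TEAD4, AMOTL1 and AMOTL2 were not called. In all, 5 of the 10 genes were called, 4 lower and 1 higher, beside 26.1% of all genes (11.7% lower and 14.4% higher), and 6 had no overlap between treated and control arrays, beside 38.0% of all genes. The median change was -0.14 for the 10 genes and 0.0064 for all genes. In these bulk samples, fewer cells with a transcript and less of it per cell cannot be told apart.

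In SKOV3 cells CTGF alone was called, at -0.70 on the log2 scale. This 1 call among 10 genes stands beside 14.4% of all genes called in SKOV3 cells (7.11% lower and 7.25% higher). The treated and control arrays did not overlap for 4 of the 10 genes (TEAD4, LATS2, CTGF and CYR61), beside 41.8% of all genes. The median change of the 10 genes was -0.02, against 0.0066 for all genes. The unadjusted p was under 0.05 for 2 genes, by the same limma fit. CTGF was also the 1 gene of the 10 called in the same direction in both lines, lower in both, beside 5.39% of all genes lower and 5.76% higher in both.

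**Figure D2:**
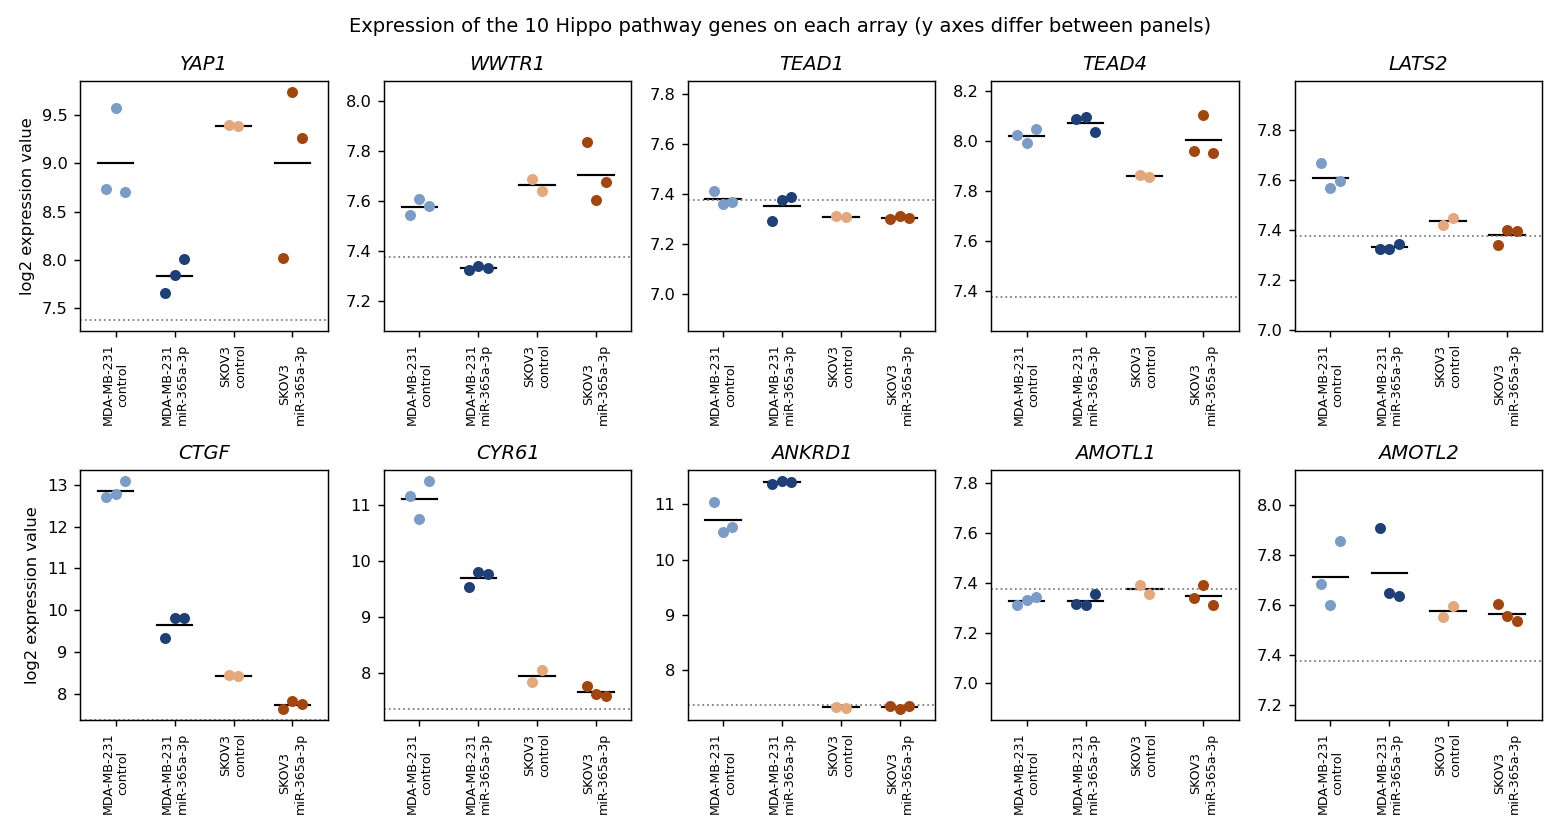
Log2 expression value (y axis, scaled separately in each panel) of the 10 genes on each of the 11 arrays, by cell line and treatment (x axis), with a bar at each group mean and a dotted line at the array median of 7.38. CTGF and CYR61 stand highest in MDA-MB-231 controls, ANKRD1 lies at the floor in SKOV3 cells, and TEAD1 and AMOTL1 lie near the floor in all groups.

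YAP1 (chr11:102110447-102233424, GRCh38.p14 here and for the genes below) encodes the co-activator YAP and was read at 8.74, 9.57 and 8.71 on the 3 MDA-MB-231 control arrays and at 7.65, 7.84 and 8.01 on the treated arrays. All treated arrays lay below all controls, and the second control array stood well above the other two. The difference was -1.17 (SE 0.41, 95% interval -2.10 to -0.25), with an adjusted p of 0.0680 from limma, so that YAP1 was not called. The SKOV3 controls read 9.40 and 9.39, and the treated arrays 8.01, 9.74 and 9.26. Treated array 1 lay far below the controls while array 2 lay above them, and the SKOV3 difference of -0.39 had a 95% interval from -1.43 to 0.65 (adjusted p = 0.748 from limma). Without SKOV3 treated array 1 that difference was 0.10. The MDA-MB-231 difference, which shares its estimate of the spread, was then called (adjusted p = 0.00692 from limma). The ribosomal minus large-protein measure was 4.73, 4.08 and 4.31 on SKOV3 treated arrays 1, 2 and 3. Its part in the YAP1 values was not tested.

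WWTR1 (chr3:149517235-149724788) encodes TAZ, the close relative of YAP. Its values were 7.54, 7.61 and 7.58 on the MDA-MB-231 controls and 7.32, 7.34 and 7.33 after miR-365a-3p. The groups did not overlap, and the 3 treated values lay just under the array median, so that the change of -0.24 (SE 0.051, adjusted p = 0.00723 from limma) covered all of the 0.20 by which the controls stood above that median. In SKOV3 cells WWTR1 read 7.69 and 7.64 in the controls and 7.83, 7.60 and 7.68 after treatment, with overlapping groups and a difference of 0.04 (adjusted p = 0.796 from limma). That sign depended on the scaling, since the deposited values without further normalization gave -0.19 (adjusted p = 0.0370 from limma).

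The TEAD factors carry YAP and TAZ to DNA. TEAD1 (chr11:12674421-12944737) lay within 7.29 to 7.41 on all 11 arrays, at the floor. TEAD4 (chr12:2959397-3040676) was measured above the floor at 8.02, 7.99 and 8.05 on the MDA-MB-231 controls and 8.09, 8.10 and 8.04 on the treated arrays, which overlap. Its difference of 0.05 (adjusted p = 0.451 from limma) turned to -0.31 in the deposited values and to -0.28 where each array was centred on its median, both called, so that no direction can be given for TEAD4. In SKOV3 cells TEAD4 read 7.87 and 7.86 in the controls and 7.96, 8.11 and 7.95 after treatment, higher on all treated arrays by 0.14 on average (adjusted p = 0.0706 from limma), a sign that also turned under those scalings.

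LATS2 (chr13:20973036-21061586), the kinase that phosphorylates YAP and TAZ, read 7.67, 7.57 and 7.60 on the MDA-MB-231 controls and 7.33, 7.32 and 7.35 on the treated arrays. The groups did not overlap and the treated arrays agree within 0.012 (SD) at a level just under the array median. The change of LATS2 was -0.28 (SE 0.029, adjusted p = 0.000227 from limma), and as for WWTR1 this was the whole of the 0.23 that the controls stood above the median. In SKOV3 cells LATS2 was at 7.42 and 7.45 in the controls and at 7.34, 7.40 and 7.39 after treatment. All treated arrays were lower, with a difference of -0.06, in a line where the controls stood only 0.058 above the median (adjusted p = 0.376 from limma).

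CTGF (chr6:131948176-131951372) read 12.72, 12.77 and 13.09 on the MDA-MB-231 controls and 9.33, 9.81 and 9.80 after miR-365a-3p. All controls lay far above all treated arrays, and the spread within each group was small beside the gap. The difference of -3.21 (SE 0.14, adjusted p = 3.45e-06 from limma) was the 13th largest fall of all 31325 genes. In SKOV3 cells CTGF started at 8.45 and 8.42 and read 7.64, 7.82 and 7.75 after treatment, again with no overlap. This change of -0.70 (SE 0.16) had an adjusted p of 0.0179 from limma, and the call was lost without SKOV3 control array 1 (adjusted p = 0.119) or without SKOV3 control array 2 (adjusted p = 0.113). Even after treatment, CTGF in MDA-MB-231 cells stood above the SKOV3 controls on every array.

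CYR61 (chr1:85580761-85583950), a secreted protein of the same family as CTGF, read 11.16, 10.76 and 11.43 on the MDA-MB-231 controls and 9.53, 9.80 and 9.78 on the treated arrays. Every treated array was below every control array. The difference of -1.41 (SE 0.16) had an adjusted p of 0.000300 from limma. In SKOV3 cells the controls read 7.85 and 8.07 and the treated arrays 7.77, 7.63 and 7.60. All treated arrays were lower, yet the difference of -0.29 (95% interval -0.69 to 0.11) was not called (adjusted p = 0.400 from limma), though the deposited values without further normalization gave -0.57 with a call (adjusted p = 0.0491 from limma).

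ANKRD1 moved the other way from CTGF and CYR61. The gene (chr10:90912096-90921087) read 11.05, 10.50 and 10.59 on the MDA-MB-231 controls and 11.37, 11.42 and 11.40 on the treated arrays, which were all higher than any control and much closer together. The rise of 0.68 (SE 0.12, adjusted p = 0.00277 from limma) was larger than the median change of 0.17 among the 6853 genes with a mean value above 8, and it was called in all 20 alternative settings. In SKOV3 cells ANKRD1 was at the floor throughout, from 7.31 to 7.36, so that a fall there could not have been measured.

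The angiomotins, which bind YAP and actin, did not pass the test in either line. AMOTL1 (chr11:94706460-94876748) lay within 7.31 to 7.39 on all 11 arrays, at the floor. AMOTL2 (chr3:134355345-134375417) read 7.68, 7.60 and 7.86 on the MDA-MB-231 controls and 7.91, 7.65 and 7.64 on the treated arrays, with overlapping groups and a difference of 0.02 (adjusted p = 0.930 from limma) that became -0.24 and was called in the deposited values (adjusted p = 0.0420 from limma). The SKOV3 values of AMOTL2 ran from 7.54 to 7.61, with no gap between controls and treated arrays.

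**Figure D3:**
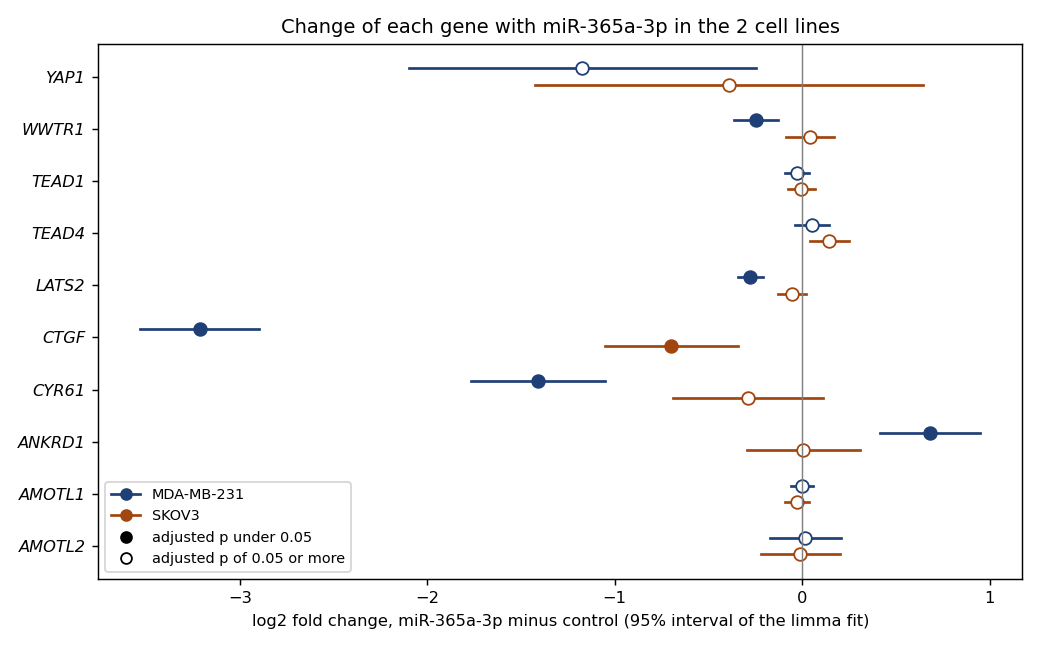
Log2 fold change, miR-365a-3p minus control (x axis), of the 10 genes in MDA-MB-231 (blue) and SKOV3 (brown) cells, with 95% intervals of the limma fit; filled points have an adjusted p under 0.05. CTGF at -3.21 and CYR61 at -1.41 lie far left of 0 in MDA-MB-231 cells, ANKRD1 at 0.68 lies right of it, and the widest intervals are those of YAP1.

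Whether the lines differed in their response was tested as the MDA-MB-231 change minus the SKOV3 change. CTGF (-2.52, SE 0.21, adjusted p = 0.000779 from limma), CYR61 (-1.12, SE 0.24, adjusted p = 0.0469 from limma) and LATS2 (-0.22, SE 0.044, adjusted p = 0.0363 from limma) were called, all with the larger fall in MDA-MB-231 cells. These are 3 of 10 genes, beside 2.54% of all genes (1.30% lower and 1.24% higher in the MDA-MB-231 response). The CTGF difference was the second most negative of all genes and was called under all 19 alternatives that could be fitted, whereas that of CYR61 was called under 5 and that of LATS2 under 6. The distance to the floor differed as well: CTGF could fall by 5.48 to the array median in the breast line and by 1.06 in the ovarian line, CYR61 by 3.74 and 0.58, and LATS2 by 0.23 and 0.058. A smaller response and a lower starting level therefore cannot be told apart for these genes in SKOV3 cells. The ribosomal minus large-protein measure also rose further in MDA-MB-231 cells (mean 2.76 to 5.07) than in SKOV3 cells (2.96 to 4.37). Its part in these differences was not tested. YAP1 (-0.78, adjusted p = 0.702 from limma), WWTR1 (-0.29, adjusted p = 0.117 from limma) and ANKRD1 (0.68, adjusted p = 0.110 from limma) were not called for the difference. The ANKRD1 difference was called in the deposited values (adjusted p = 0.0364 from limma), with median centring (adjusted p = 0.0392 from limma) and without MDA-MB-231 control array 1 (adjusted p = 0.000165 from limma).

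The starting levels were compared as MDA-MB-231 controls minus SKOV3 controls. CTGF was higher in MDA-MB-231 controls by 4.43 (SE 0.16), the second largest excess of all genes, ANKRD1 by 3.37 (SE 0.13) and CYR61 by 3.16 (SE 0.18). LATS2 was higher by 0.18 (adjusted p = 0.00572 from limma) and TEAD4 by 0.16 (adjusted p = 0.0456 from limma), of which the TEAD4 call held in 4 of 18 alternatives. These are 5 of 10 genes, all higher in MDA-MB-231 cells, beside 16.1% of all genes (7.76% higher and 8.34% lower), and the control groups did not overlap for 9 of the 10, beside 44.0% of all genes. YAP1 (-0.39, adjusted p = 0.751 from limma) and WWTR1 (-0.09, adjusted p = 0.462 from limma) were not called between the control lines, although without further normalization and with median centring WWTR1 was called lower in MDA-MB-231 cells.

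The order of the 4 groups was the same for CTGF and CYR61, from MDA-MB-231 controls through treated MDA-MB-231 cells and SKOV3 controls to treated SKOV3 cells. No neighbouring groups overlapped in this order for either gene, with the narrowest gap between treated and control SKOV3 arrays of CYR61. ANKRD1 ran from treated to control MDA-MB-231 cells and then to both SKOV3 groups, which overlapped at the floor. For YAP1 the SKOV3 controls lay within the ranges of the MDA-MB-231 controls (9.01 ± 0.49, SD, n = 3) and of treated SKOV3 cells (8.01 to 9.74), and treated MDA-MB-231 cells (7.83 ± 0.18, SD, n = 3) stood below both control groups.

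The direction of the called changes in MDA-MB-231 cells was the same under the 4 scalings compared. Called lower were WWTR1, LATS2, CTGF and CYR61 in each of them and called higher ANKRD1. Deposited values added falls of YAP1, TEAD4 and AMOTL2, which makes 7 lower and 1 higher, and median centring added YAP1 and TEAD4, which makes 6 lower and 1 higher. In SKOV3 cells the deposited values added WWTR1, LATS2 and CYR61 to CTGF, 4 lower in all. Over all genes the share of calls that were lower was 44.8% in the breast line and 49.5% in the ovarian line after quantile normalization, 71.2% and 78.6% in the deposited values, and 59.1% and 67.7% with median centring.

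**Figure D4:**
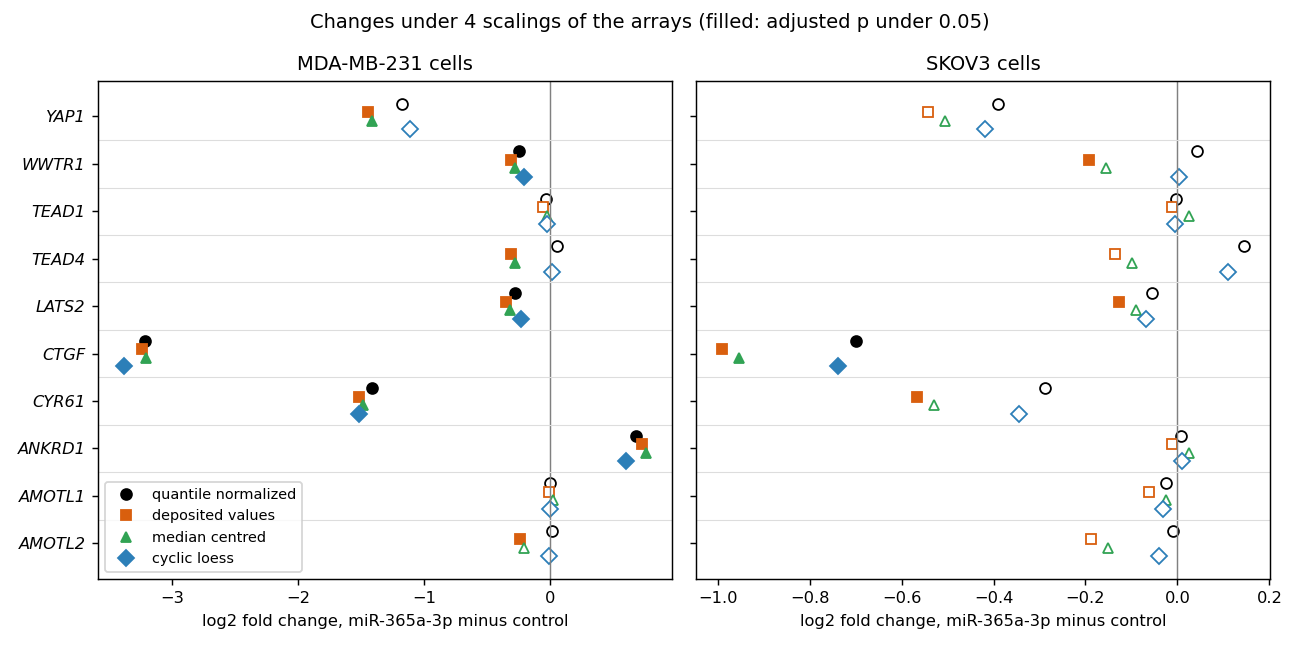
Log2 fold change, miR-365a-3p minus control (x axes of different range), of the 10 genes in MDA-MB-231 (left) and SKOV3 (right) cells under quantile normalization (black), the deposited values (orange), median centring (green) and cyclic loess (blue), filled where the adjusted p was under 0.05. CTGF, CYR61 and ANKRD1 keep their side of 0 in MDA-MB-231 cells under all 4, while TEAD4 lies on both sides of it.

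Patterns over the 11 arrays were compared with those of the 6852 other genes with a mean above 8, as a description of arrays that form 4 groups. The 5 genes most like CTGF were TMEM158 (Pearson r = 0.998), RAC2 (0.992), COL8A1 (0.990), UNG (0.989) and COL13A1 (0.989). For YAP1 the 5 were TSPAN9 (0.968), C3orf21 (0.968), ZYG11B (0.951), LOC146517 (0.948) and ZNF721 (0.941). Neither set held any of the 10 genes, of which WWTR1, TEAD1, LATS2, AMOTL1 and AMOTL2 had means below 8 and were not searched.

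The wider pathway was read from 4 lists with 53 further genes, chosen with earlier results of these data known. Of these, 25 were called in MDA-MB-231 cells, 21 lower and 4 higher, beside 26.1% of all genes (11.7% lower and 14.4% higher), and 17 in SKOV3 cells, 13 lower and 4 higher, beside 14.4% (7.11% lower and 7.25% higher). The deposited values gave 34 lower and 1 higher in the breast line and 21 lower and 3 higher in the ovarian line, and median centring 30 and 1, and 18 and 3. The median change of the 53 genes was -0.09 and -0.03.

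Other YAP/TAZ targets included 9 of 17 genes that fell and 0 that rose in MDA-MB-231 cells, and 7 that fell and 0 that rose in SKOV3 cells by the limma fit, with 5 lower in both lines. Of all genes, 11.7% were called lower in the breast line, 7.11% in the ovarian line and 5.39% in both. The list was chosen with earlier results of these data known, so that the counts are no independent test of YAP/TAZ targets. AXL, a receptor tyrosine kinase, ranged from 12.7 to 12.9 on the MDA-MB-231 controls and from 8.38 to 9.54 on the treated arrays. Its change was -3.80 in the breast line and -2.44 in the ovarian line. The latter was not called without SKOV3 control array 1, without SKOV3 control array 2 or with each line fitted alone. MYOF, a membrane repair protein of the ferlin family, changed by -2.51 and -1.52. Its SKOV3 call was lost without SKOV3 control array 2 or with each line fitted alone. ASAP1, a regulator of Arf GTPases at focal adhesions, changed by -1.94 and -1.29, and F3, the tissue factor that starts blood clotting, changed by -0.80 and -0.47. The F3 call in the ovarian line was lost with a replicate block and where a change of at least 0.5 was asked for.

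For targets called in the breast line alone, the difference of the responses was read as well. DOCK5, an activator of Rac, changed by -0.67 in the breast line and by -0.12 in the ovarian line, and the difference of -0.55 was called (adjusted p = 0.00156 from limma). Its SKOV3 controls, with a mean of 7.47, stood close to the array median. NT5E, the ectonucleotidase CD73, changed by -1.90 and -0.09 and CRIM1, a membrane protein that binds growth factors, by -1.14 and -0.26, but neither difference was called (adjusted p = 0.0634 and 0.0877 from limma). The targets not called in either line included GADD45A, TGFB2, FJX1, CCDC80, RBMS3 and IGFBP3.

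Among 17 upstream regulators of the Hippo chain, 4 fell and 2 rose in MDA-MB-231 cells, and 1 rose in SKOV3 cells. These 6 and 1 calls among 17 genes stand beside 26.1% and 14.4% of all genes called, so that they are no result about the regulators. STK4, which encodes the kinase MST1 at the head of the chain, fell by 2.06 in the breast line (adjusted p = 0.00218 from limma) and, with no call, changed by -0.64 in the ovarian line. In MDA-MB-231 cells MAP4K4, a kinase that acts in parallel to it, changed by -0.53, MOBKL1A (MOB1B) by -0.39, TAOK1 by -0.22 and TAOK3 by 0.16, and all 4 were called. MOBKL1B (MOB1A), the scaffold that activates LATS kinases, rose by 1.25 in the breast line and by 1.10 in the ovarian line. The ovarian call was lost without SKOV3 control array 1 or without SKOV3 control array 2. It was also lost with each line fitted alone and at an adjusted p from limma under 0.01. NF2, LATS1, STK3 and SAV1 were not called in either line.

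Of the 6 further TEAD factors and VGLL cofactors, TEAD3 and VGLL4 fell in both lines and the other 4 genes were not called in either, beside 5.39% of all genes lower in both. VGLL4 competes with YAP for TEAD binding and fell by 0.65 in the breast line and by 0.64 in the ovarian line. TEAD3 changed by -0.47 and -0.58.

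SRF and its MRTF cofactors form the other main actin-sensing route to transcription, and 6 of the 13 genes of that list fell and 2 rose in MDA-MB-231 cells, while 4 fell and 3 rose in SKOV3 cells. The shares of all genes were 11.7% lower and 14.4% higher in the former, and 7.11% and 7.25% in the latter. SRF itself fell by 1.53 in the breast line (adjusted p = 0.00259 from limma) and, with no call, changed by -0.47 in the ovarian line. CNN2, a calponin that binds actin, changed by -1.07 and -0.99. TPM1, a tropomyosin, was higher by 0.44 and 0.47, and TAGLN, an actin-binding protein of smooth muscle, by 0.32 and 0.58. The TPM1 calls held in 11 of 20 alternatives in the breast line and 8 of 20 in the ovarian line. The TAGLN call in the breast line held in 8 of 20. These calls depend on the settings, whereas the TAGLN call in the ovarian line held in all 20.

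**Figure D5:**
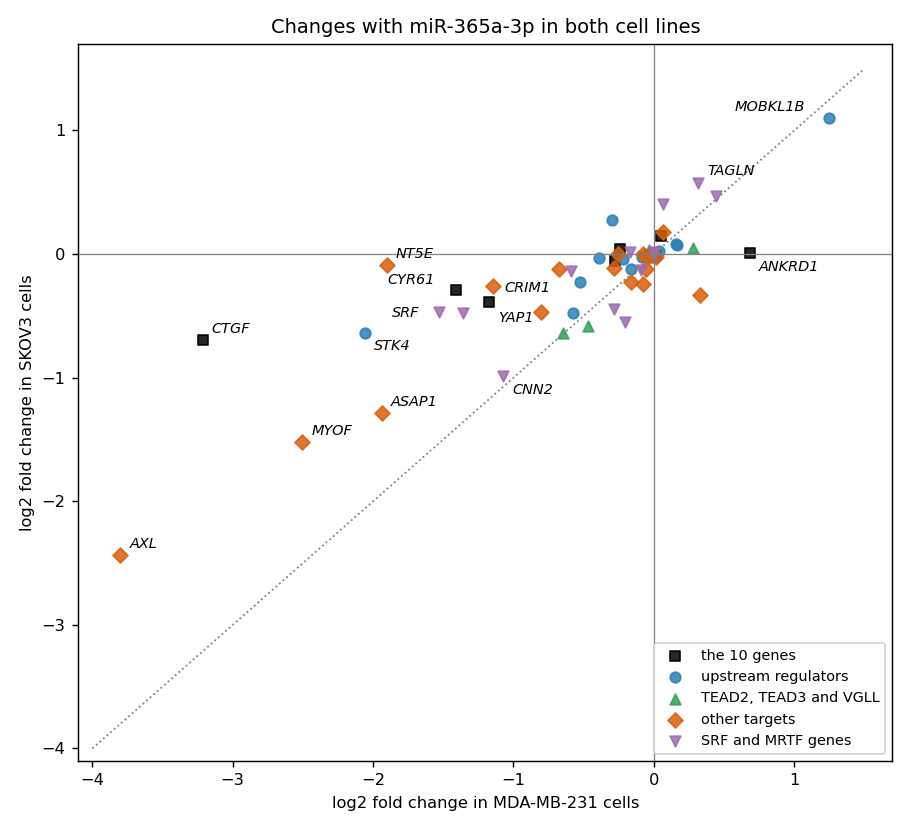
Log2 fold change with miR-365a-3p in MDA-MB-231 cells (x axis) against that in SKOV3 cells (y axis) for the 10 genes (black squares) and the 53 genes of the 4 further lists; the dotted line marks equal change. CTGF at -3.21 and -0.70 lies far above the line, with the smaller fall in SKOV3 cells. AXL, MYOF and ASAP1 also fall in both lines, and ANKRD1 and MOBKL1B lie right of 0.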

How the data were processed

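RNA of 11 samples was amplified, labelled with biotin and hybridised in 1 colour. According to their methods the authors quantile normalized the arrays in lumi. The deposited table holds log2 values, with 1 row per gene symbol and 1 column per array. The transformation behind that scale (plain log2 or variance stabilizing), the rule for several probes of a gene and any background subtraction are not given in the sources used here. Detection calls were not used here.

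The deposited columns did not share a distribution and were quantile normalized across all 11 arrays with limma 3.58.1 in R 4.3.3. Means of 4 groups, taken from the sample labels, were fitted to all 31325 genes with no filter, with eBayes for the contrasts and a Benjamini-Hochberg adjustment over the whole table (threshold 0.05). The number of arrays limits the precision. No pair of arrays was identical. All columns were used.

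The 10 genes, the lists and the tests were chosen with earlier results of these data known. The row TAZ is tafazzin and was not used. MYOF has a second row under the older name FER1L3, which was left out. List genes named are the 6 largest falls and rises by the mean of both lines among genes called in both without overlap, those called for the difference, and others picked for mention with their values in view.

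The alternatives were other scalings (deposited values, median centring, cyclic loess), each line alone, a replicate block, a filter at the median, an intensity trend with robust hyperparameters, stricter thresholds, and each array left out. The fit was tested on simulated data. Promoters and the microRNA come from RefSeq (GRCh38.p14) and were searched in Python 3.11.15. No transcript sequences were used, so that seed sites of miR-365a-3p in these genes were not searched. Figures were drawn with matplotlib 3.10.9.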

Additional observations from a re-analysis of the deposited data

Results flagged for a closer look

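The response to miR-365a-3p differed between the cell lines, by limma's test of the MDA-MB-231 change minus the SKOV3 change, for CTGF (-2.52), CYR61 (-1.12), LATS2 (-0.22) and DOCK5 (-0.55). All 4 started lower in SKOV3 cells, nearer to the floor of the arrays, and the part of this in the difference was not tested.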

How the results depend on the processing

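The 5 calls among the 10 genes in MDA-MB-231 cells became 8 in the deposited values and 3 where a log2 change of at least 0.5 was asked for, with 5 to 6 when an array was left out. The 1 call in SKOV3 cells became 4 in the deposited values and 0 at an adjusted p from limma under 0.01 (2 genes had an unadjusted p under 0.05), with 0 to 1 when an array was left out. The 3 calls for the difference became 1 at an adjusted p under 0.01, and 1 to 3 with an array left out (only CTGF without any treated MDA-MB-231 array, MDA-MB-231 control 3, treated SKOV3 array 3 or either SKOV3 control). The 5 calls between the control lines became 3 with a change of at least 0.5, and 3 to 5 with an array left out, 3 being without SKOV3 control 1. Of the pathway lists, the 25 calls in MDA-MB-231 cells became 15 with a change of at least 0.5 (22 to 28 with an array left out) and the 17 in SKOV3 cells 9, with 11 for each line fitted alone and 9 to 18 with an array left out, 9 being without either SKOV3 control. Changes that turned sign with a call were those of TEAD4 in MDA-MB-231 cells (-0.31 deposited, -0.28 median centred), AMOTL2 in MDA-MB-231 cells (-0.24 deposited) and WWTR1 in SKOV3 cells (-0.19 deposited). Among changes called under no setting, TEAD4 in SKOV3 cells reached -0.14 and YAP1 in SKOV3 cells 0.10, and smaller changes of TEAD1, AMOTL1, AMOTL2 and ANKRD1 also turned sign in at least 1 line. YAP1 in MDA-MB-231 cells ranged from -1.44 to -0.89 and was called in 7 of 20 alternatives. The causes were not tested. Genes near the floor have only a bound on their fall.

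The main fit did not pair arrays by replicate number. Deviations from the group means, over genes with a mean above 8, were correlated between same-numbered treated and control arrays. The Pearson r ran from -0.125 to 0.232 in MDA-MB-231 cells and was 0.039 and -0.073 in SKOV3 cells. Arrays of unlike number were not compared, so that these values cannot settle whether the numbers mark pairs. With a replicate block the calls were 5 in the breast line, 1 in the ovarian line and 1 for the difference, and the difference of DOCK5 (-0.54) was not called (adjusted p = 0.0888 from limma).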

Other observations

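The row of MIR365-1, a precursor gene of the transfected microRNA, read 7.62 ± 0.031 (SD, n = 3) on MDA-MB-231 controls and 8.01 ± 0.18 (SD, n = 3) on treated arrays, and 7.68 ± 0.059 (SD, n = 2) and 7.99 ± 0.28 (SD, n = 3) in SKOV3 cells. The row of MIR365-2 stayed at the floor, with means from 7.31 to 7.33. These arrays measure polyadenylated RNA and not the mature microRNA. The SKOV3 marker ERBB2 read 8.52 to 9.69 on treated SKOV3 arrays, below both controls, and PAX8 read 7.43 to 7.51 there, against 8.18 on the controls and 7.39 to 7.42 on MDA-MB-231 controls.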
